A study of Equus caballus with 31 samples.

Results

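The genes of the constitutive proteasome were examined in healthy horses and in horses that had developed osteoarthritis (OA), with RNA sequenced from mononuclear cells of the blood (PBMC) and from the cells of synovial fluid, the fluid of the joint. Members were all gene symbols that begin with PSMA to PSMG and a number, without the immunoproteasome genes PSMB8, PSMB9 and PSMB10 and their cap genes PSME1 and PSME2. Of 16799 genes present in the tables of both tissues, 39 met this rule. They comprise 13 genes of the core particle, 15 of the regulatory particle, 8 assembly chaperones, alternative caps and an inhibitor, 1 germline variant of an alpha subunit (PSMA8) and 2 genes that share the name pattern but are no subunits (PSMC3IP and PSME3IP1). PSMB3, PSMD8, PSMD14, PSMG1, PSMG2 and the thymus variant PSMB11 were not analysed here.

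The proteasome is the protease that degrades proteins tagged with ubiquitin. Its core particle is a barrel of stacked rings: the outer alpha rings gate the entrance, and the inner beta rings hold the proteolytic sites of PSMB5, PSMB6 and PSMB7. The regulatory particle docks on the barrel, where its base of ATPases unfolds substrates and its lid helps to recognise them and remove ubiquitin. Immune cells and cells exposed to interferon can replace the catalytic subunits with PSMB8, PSMB9 and PSMB10, which gives the immunoproteasome, a form known for making peptides for MHC class I.

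The fluid groups held 5 OA and 11 healthy horses and the blood groups 6 and 9, with 1 library per horse and tissue. All are wild type per the labels, which name no treatment for either group, and horses that had recently received medication or a joint injection were left out by the study. The study assigned OA from lameness, radiographic signs and whether numbing the joint helped; age, sex and batch are not given in the labels used here. For 13 horses, 5 with OA and 8 healthy, both tissues were sequenced, and horses are named as in the labels (OA_ for OA, ORC_ for healthy).

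Libraries held 25.9 to 36.3 M gene reads in fluid. Blood libraries held 23.9 to 34.8 M, where the OA libraries were deeper (31.7 to 34.8 M against 23.9 to 32.2 M). The fluid cells are labelled as mixed mononuclear cells, and the RNA levels of cell type markers differed between the groups. The summed level of 8 T cell markers was 6679 to 28222 in OA fluid and 30646 to 109719 in healthy fluid, that of 6 cytotoxic and NK cell markers 6300 to 19057 and 19981 to 102962, that of 7 monocyte and macrophage markers 30597 to 228863 and 14735 to 147898, and that of 7 synovial fibroblast markers 1225 to 608355 and 707.3 to 123353. In fluid 8 of 8 T cell markers and 6 of 6 cytotoxic markers were called lower in OA, and 3 of 7 tested fibroblast markers and 2 of 7 monocyte and macrophage markers higher. In bulk samples such as these, more cells of a type and more RNA per cell cannot be told apart, and the part of cell makeup in the changes below was not tested.

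Values are reads per gene that the authors scaled by a median-ratio factor per library, called normalised read counts here. Since fluid and blood were scaled separately, no level is compared between tissues, and without gene lengths none is compared between genes. Changes are differences of log2(value + 1), OA minus healthy, with their standard error (SE), and adjusted p-values come from limma, fitted on all genes of a tissue and adjusted over all of them with the Benjamini-Hochberg method. A gene was called at an adjusted p below 0.05. As background, 14.4% of the 13885 genes tested in fluid were called higher in OA and 13.6% lower. In blood 3.2% of 13072 genes were called higher and 2.2% lower. An unadjusted p below 0.05 was found for 5790 of the genes tested in fluid and 3273 of those in blood, against which counts at that level are to be read.

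In OA fluid 6 of 13 core particle genes and 1 of 15 regulatory particle genes were called higher, and none of either was called lower. The core genes were PSMA2, PSMA3, PSMA4, PSMA7, PSMB5 and PSMB6, and the regulatory gene was PSMD1. The change was positive for 13 of 13 core genes (10 with libraries scaled to equal totals), with a median of 0.47, against 0.08 over all genes tested. It was positive for 14 of 15 regulatory genes (also 10 with equal totals), with a median of 0.24. Equal totals moved the median over all genes to -0.12. Relative to the median over all genes the core stood 0.39 higher and the regulatory particle 0.16 higher under either scaling. Scaling a library shifts all its genes nearly alike, so this agreement was fixed in advance and is no sign of stability. The number of calls did depend on the scaling, as given in the last section. The core count is above the background share of 14.4% and the regulatory count of 1 in 15 is near it; whether the particles differ was not tested.

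**Figure D1:**
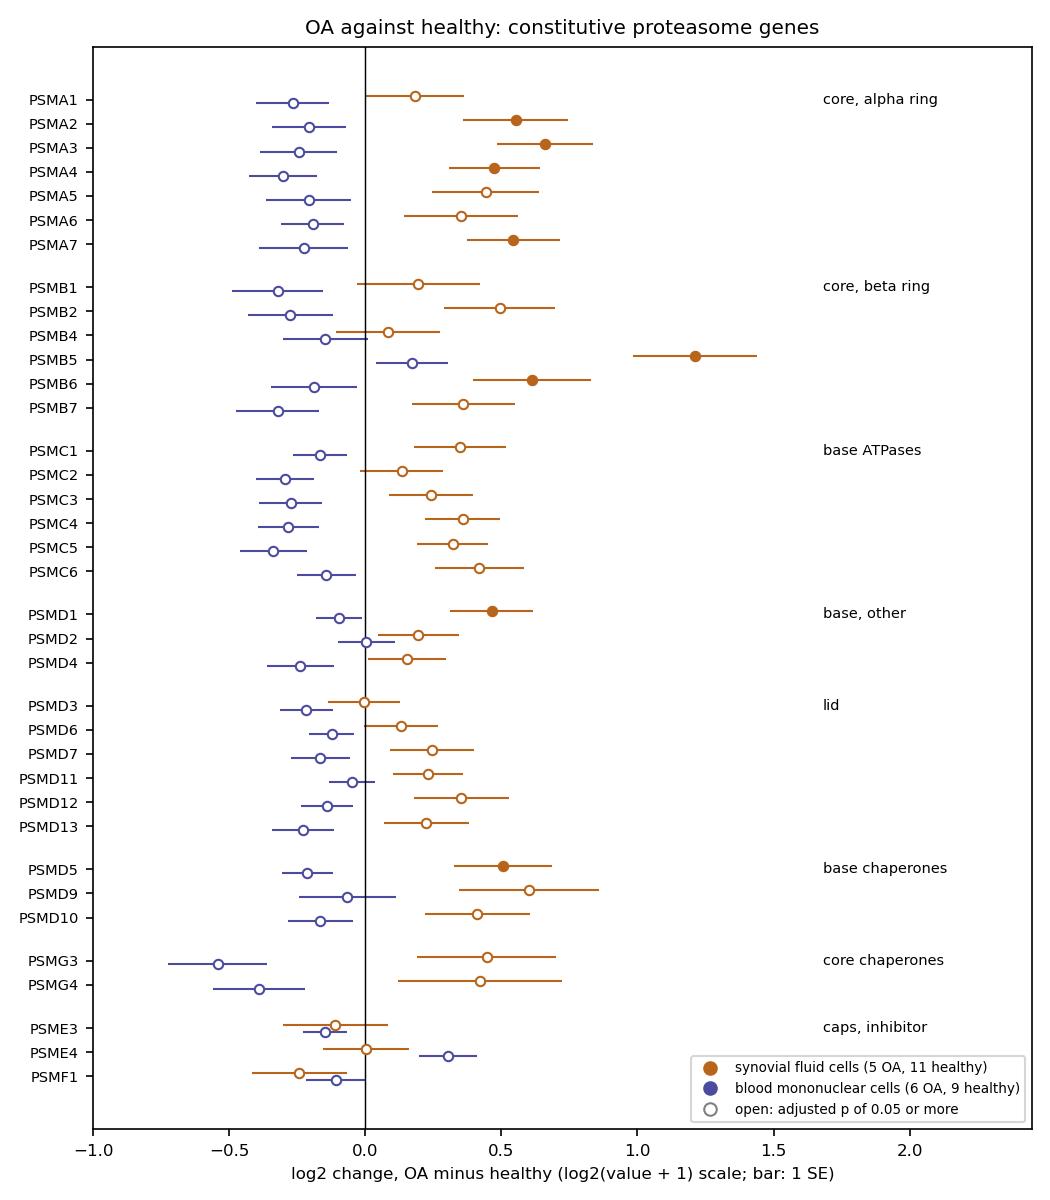
Log2 change of each proteasome gene, OA minus healthy, in synovial fluid cells (orange, 5 OA and 11 healthy horses) and blood mononuclear cells (blue, 6 OA and 9 healthy horses), grouped by place in the complex; bars are 1 SE and filled points have an adjusted p below 0.05. Core genes lie to the right of 0 in fluid, from 0.08 to 1.21 (3 of 13 turn negative when libraries are scaled to equal totals), and all but PSMB5 lie to the left in blood.

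Of the 7 alpha ring genes, 4 rose in OA fluid. PSMA3 had normalised read counts of 3670 (OA_1038), 3247 (OA_2615), 2836 (OA_3850), 3323 (OA_9350) and 2215 (OA_9570) in OA, and 1354 to 2756 with a median of 1870 in the healthy fluids. Of the OA horses 4 lay above every healthy one, whereas OA_9570 lay below 3 of them. The change was 0.66 (SE 0.18, limma adjusted p = 0.012). PSMA7 had 6156 (OA_1038), 5063 (OA_2615), 5647 (OA_3850), 7830 (OA_9350) and 4903 (OA_9570), against 2875 to 5919 with a median of 4006. The groups overlapped through the healthy horses ORC_208 and ORC_198, and the change was 0.54 (SE 0.17, adjusted p = 0.026). PSMA2 changed by 0.55 (adjusted p = 0.04) and PSMA4 by 0.47 (adjusted p = 0.041), calls lost in 14 and 12 of 26 alternatives, respectively. The remaining 3 did not pass the test: PSMA5 at 0.44 (adjusted p = 0.095), PSMA6 at 0.35 and PSMA1 at 0.18.

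Of the 6 beta ring genes, 2 rose, and both encode catalytic subunits. PSMB5, the chymotrypsin-like site and the usual target of proteasome inhibitors, had 7621 (OA_1038), 3727 (OA_2615), 3895 (OA_3850), 2716 (OA_9350) and 2927 (OA_9570) in OA and 1080 to 2369 in healthy fluids, with a median of 1615. Every OA fluid lay above every healthy one, which held for no other core gene and for 1.57% of all genes tested. The mean went from 1724 ± 422.6 (SD, n = 11) to 4177 ± 1990 (SD, n = 5), a change of 1.21 (SE 0.23, limma adjusted p = 0.0018). It was 0.97 (adjusted p = 0.0043) without OA_1038, whose value was about that of the next 2 OA fluids together.

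PSMB6, the caspase-like site, had 4372 (OA_1038), 3141 (OA_2615), 3047 (OA_3850), 4215 (OA_9350) and 3121 (OA_9570) in OA fluid and 1395 to 3675 in healthy fluid, with a median of 2612. All 5 OA horses lay above 9 of the 11 healthy horses, with ORC_208 and ORC_198 in their range. The change was 0.61 (SE 0.22, limma adjusted p = 0.043), a call lost in 15 of 26 alternatives. PSMB7, the trypsin-like site, had 3812 (OA_1038), 3395 (OA_2615), 2995 (OA_3850), 3179 (OA_9350) and 2907 (OA_9570), against 1676 to 4208 with a median of 2537. These values also lay above 9 of 11 healthy horses, but the change of 0.36 did not pass the test (adjusted p = 0.16). The non-catalytic PSMB2 changed by 0.49 (adjusted p = 0.076), PSMB1 by 0.19 and PSMB4 by 0.08, and none of these was called.

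The PSMB5 values carry a limit of annotation. On the horse build EquCab3.0 its annotated span, chr1:162917073-163013887, overlaps those of AJUBA, C1H14orf93, HAUS4, PRMT5 and RBM23, and whether the counting used strand, or how it treated shared reads, is not given in the sources used here. In fluid C1H14orf93 changed by -1.07 (adjusted p = 0.0058), HAUS4 by -0.50 (adjusted p = 0.022), PRMT5 by 0.71 (adjusted p = 0.094), RBM23 by -0.14 and AJUBA by -0.62, the last 3 not called. PSMB6, PSMB7, PSMA2, PSMA3 and PSMA7 overlap no other annotated gene, while PSMA4 overlaps HYKK, which rose by 1.57 in fluid (adjusted p = 0.04) from a mean of 42.1 to 113.2.

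**Figure D2:**
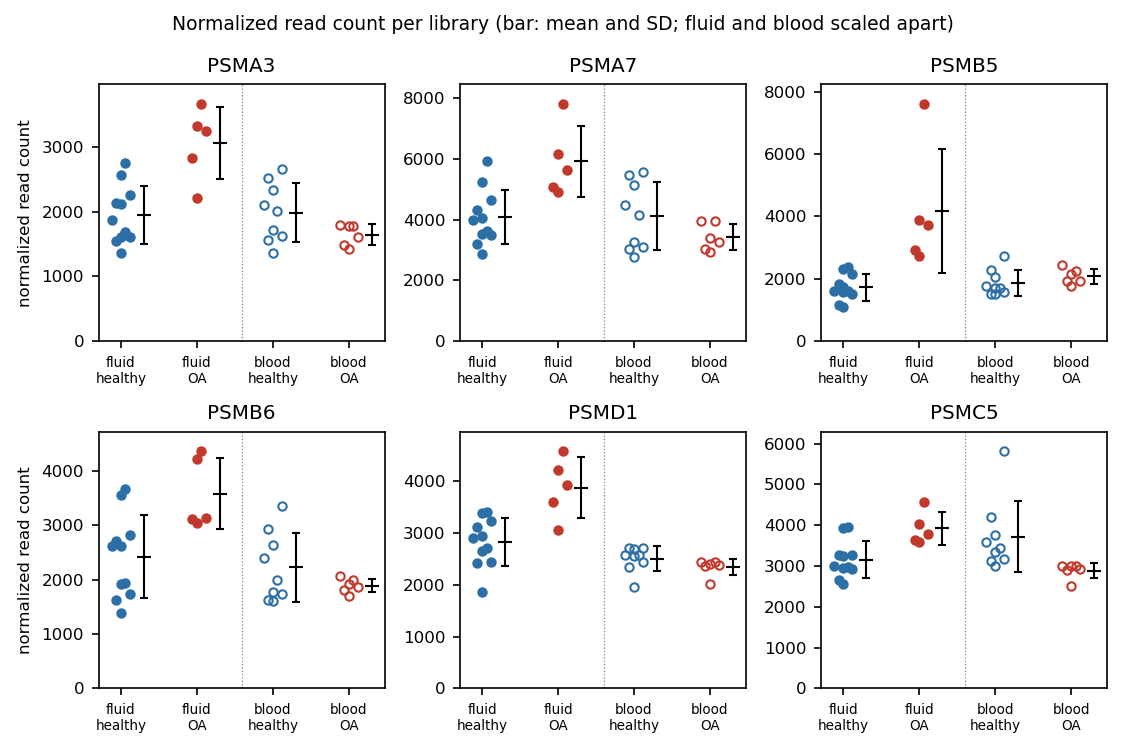
Normalised read count of 6 proteasome genes in each library, by tissue and group, with mean and SD; filled points are fluid (11 healthy, 5 OA) and open points blood (9 healthy, 6 OA), which were scaled separately. In fluid the OA values of PSMB5 (2716 to 7621) lie above all healthy values, whereas those of PSMA3, PSMA7, PSMB6, PSMD1 and PSMC5 overlap them; in blood the OA values of PSMC5 (2516 to 2994) lie below all healthy values.

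In the regulatory particle PSMD1, a scaffold of the base, was the gene called. It had 3599 (OA_1038), 4594 (OA_2615), 3930 (OA_3850), 4231 (OA_9350) and 3060 (OA_9570) in OA fluid and 1859 to 3408 in healthy fluid, with a median of 2909. All OA fluids but OA_9570 lay above the healthy range. The change was 0.46 (SE 0.15, limma adjusted p = 0.031). The other scaffold, PSMD2, changed by 0.19 and the ubiquitin receptor PSMD4 by 0.15, and neither was called. The annotated span of PSMD1 contains HTR2B, which had too few reads to be tested.

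None of the 6 ATPases of the base was called in fluid (3 at an unadjusted p below 0.05, a share near that of all genes), with changes from 0.13 to 0.42. The largest was that of PSMC6, with 3230 (OA_1038), 3062 (OA_2615), 2827 (OA_3850), 2511 (OA_9350) and 1751 (OA_9570) in OA and 1326 to 2410 with a median of 1980 in healthy fluid. OA_9570 lay among the lowest healthy horses and the other OA horses above all of them. The change was 0.42 (SE 0.16, limma adjusted p = 0.061), and it was called with DESeq2 (adjusted p = 0.033), without OA_9570 (0.56, adjusted p = 0.011) and without ORC_198 (0.45, adjusted p = 0.049). PSMC6 also shares its annotated span with FERMT2, GNPNAT1 and STYX, of which GNPNAT1 (1.03, adjusted p = 0.0054) and STYX (0.60, adjusted p = 0.037) rose in fluid. FERMT2 was not called (3.22, limma adjusted p = 0.17), with a mean of 134.9 in healthy and 1987 in OA fluid. Its OA values also lay above every healthy one in 4 horses, with the highest in OA_1038 and 0 in OA_9570. PSMC4 changed by 0.36 (adjusted p = 0.06) and PSMC5 by 0.32 (adjusted p = 0.074).

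None of the 6 lid genes was called either (0 at an unadjusted p below 0.05), with changes from -0.00 for PSMD3 to 0.35 for PSMD12 (SE 0.17, limma adjusted p = 0.13). PSMD12 had 1412 (OA_1038), 1919 (OA_2615), 2088 (OA_3850), 1578 (OA_9350) and 1370 (OA_9570) in OA fluid and 901 to 1925 with a median of 1198 in healthy fluid. All OA values lay above the healthy median, but only that of OA_3850 above the healthy range. PSMD12 was called with a weight per library (0.56, adjusted p = 0.006). PSMD6, PSMD7, PSMD11 and PSMD13 changed by 0.13 to 0.25. The annotated span of PSMD13 overlaps SIRT3, which rose by 1.82 in fluid (adjusted p = 0.017), and that of PSMD6 overlaps ATXN7 (-0.56, adjusted p = 0.081).

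With other tools the counts in fluid were lower or higher. Of the core genes edgeR called 3 and DESeq2 called 6, and of the regulatory genes edgeR called 0 and DESeq2 called 4, both on reads recovered from the values. Leaving out 1 library gave 2 to 7 core calls, with 2 without OA_3850 or OA_9350, 3 without OA_1038, OA_2615, ORC_188, ORC_192, ORC_196 or ORC_201, and 0 to 2 regulatory calls (0 without OA_3850, OA_9350 or ORC_201, and 2 without OA_9570, ORC_198 or ORC_202). PSMA3 and PSMB5 were called under every alternative run.

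Among the genes that help to build the complex, the base chaperone PSMD5 rose. It had 1228 (OA_1038), 1364 (OA_2615), 1018 (OA_3850), 964.4 (OA_9350) and 1017 (OA_9570) in OA fluid and 564 to 1202 with a median of 765.6 in healthy fluid. Every OA fluid lay above the healthy median and 2 above the healthy range. The change was 0.51 (SE 0.18, limma adjusted p = 0.043), a call lost with edgeR and without any one of 12 of the 16 libraries. The base chaperones PSMD9 (0.60, adjusted p = 0.084) and PSMD10 (0.41, adjusted p = 0.11) were not called; the span of PSMD10 overlaps ATG4A (0.53, adjusted p = 0.18).

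The core chaperone PSMG3 had 2243 (OA_1038), 1015 (OA_2615), 1056 (OA_3850), 1450 (OA_9350) and 546.9 (OA_9570) in OA fluid and 548.9 to 1120 in healthy fluid, with a median of 846.9. OA_9570 was the lowest of all fluids and OA_1038 the highest. Its change of 0.45 was not called (adjusted p = 0.19), but that of 0.71 without OA_9570 was (adjusted p = 0.026). PSMG4, its partner, changed by 0.42 (adjusted p = 0.3).

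None of the alternative caps and the inhibitor was called in fluid. PSMF1, which can inhibit the core particle, had 3351 (OA_1038), 2512 (OA_2615), 2475 (OA_3850), 3163 (OA_9350) and 2991 (OA_9570) in OA and 2520 to 4853 with a median of 3566 in healthy fluid. All OA values lay below the healthy median, with a change of -0.24 (limma adjusted p = 0.3). It was called with equal library totals (-0.45, adjusted p = 0.048) or a weight per library (-0.40, adjusted p = 0.034). These settings called 2767 and 2981 of all genes lower, against 1893 without them. The change of PSME4, a nuclear cap of the core particle, was 0.00 (SE 0.16), with OA values from 2761 to 4707 and healthy values from 2713 to 4495. PSME3, the nuclear relative of the immune caps, changed by -0.11. The germline subunit PSMA8 was too low to test, at 57.9 in OA_1038, 13.8 in OA_2615 and at most 2.42 in the other fluids. The genes that share only the name pattern, PSMC3IP (-0.39) and PSME3IP1 (-0.27), were not called.

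Horses differed in the mean RNA level of the genes of each particle. As the mean over the 13 core genes of the log2 deviation from the healthy mean, the OA fluids stood at 0.59 (OA_1038), 0.40 (OA_2615), 0.38 (OA_3850), 0.75 (OA_9350) and 0.26 (OA_9570). Of the healthy fluids ORC_198 (0.59) and ORC_208 (0.51) lay in the OA range, and the other 9 lay between -0.52 and 0.17. ORC_196 had the lowest value of all fluids for 10 of 13 core genes and 8 of 15 regulatory genes. Over the 15 regulatory genes the OA fluids stood at 0.18 to 0.35 and the healthy ones at -0.38 to 0.19, with ORC_208 within the OA range. Healthy horses varied more in the core genes than in the regulatory genes, with a median coefficient of variation of 26.1% against 16.2% in fluid and 26.7% against 15.3% in blood.

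**Figure D3:**
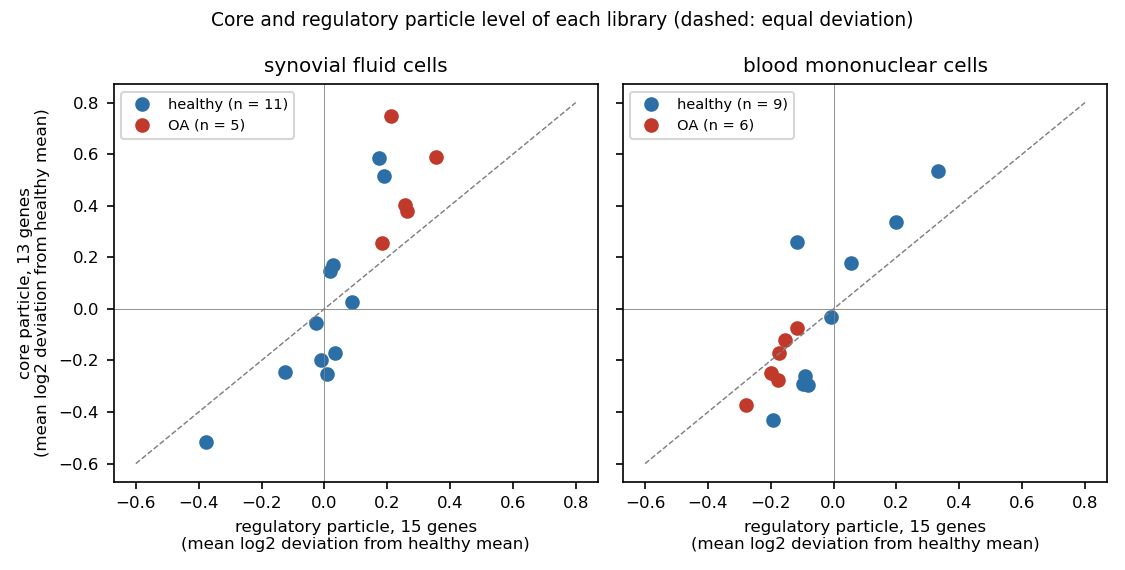
Mean log2 deviation from the healthy mean over the 13 core genes (vertical) and the 15 regulatory genes (horizontal) of each library, in fluid (left) and blood (right); the dashed line marks equal deviation. In fluid the 5 OA libraries (core 0.26 to 0.75) share the upper right with the healthy ORC_198 and ORC_208; in blood the 6 OA libraries (core -0.37 to -0.07) lie at the lower left among healthy libraries that reach 0.54.

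ORC_198 and ORC_208 were also the healthy fluids with the highest level of the 3 immunoproteasome catalytic genes, at 0.92 and 0.75 on the same scale, whereas the OA fluids lay at -1.59 to -0.18. In OA fluid the 3 genes fell, with log2 changes of -0.98 for PSMB8 (limma adjusted p = 0.017), -1.15 for PSMB9 (adjusted p = 0.033) and -0.77 for PSMB10 (adjusted p = 0.025). The cap genes PSME1 (-0.43, adjusted p = 0.13) and PSME2 (-0.49, adjusted p = 0.14) were not called.

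The ratio of a constitutive catalytic gene to the gene that replaces it does not depend on the scaling of a library. In fluid the log2 ratio of PSMB5 to PSMB8 was 0.32 (OA_1038), -0.35 (OA_2615), -0.05 (OA_3850), -1.43 (OA_9350) and -1.76 (OA_9570) in OA and -3.27 to -1.97 in healthy horses. The groups did not overlap. The difference was 2.20 (SE 0.42), with a two-sided exact permutation p = 0.000229, the smallest that the 4368 splits of 5 and 11 libraries can give, and an adjusted p = 0.00183 over the 8 ratios tested in both tissues. Each ratio combines 2 genes whose changes are given apart, so it is no separate evidence of those changes. Ratios with PSMB5 also carry its limit of annotation. How often ratios of other gene pairs separate the groups was not tested.

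PSMB6 over PSMB9 stood at 2.28 (OA_1038), 1.67 (OA_2615), 2.02 (OA_3850), 0.99 (OA_9350) and 0.43 (OA_9570) in OA fluid, against -1.11 to 0.76. Only OA_9570 fell within the healthy range, below ORC_202, and the difference was 1.76 (SE 0.38, exact permutation adjusted p = 0.00183). PSMB7 over PSMB10 stood at 0.16 (OA_1038), 0.36 (OA_2615), 0.25 (OA_3850), -0.45 (OA_9350) and -1.12 (OA_9570), against -2.21 to -0.65. Again OA_9570 alone lay in the healthy range, and the difference was 1.13 (SE 0.31, exact permutation adjusted p = 0.00321). The ratio of the caps PSME3 and PSME1 differed by 0.32 (SE 0.27, exact permutation adjusted p = 0.341). OA_9570, with the smallest ratios of the OA group, also had the lowest fibroblast marker sum of that group (1225, against 121014 to 608355 in the other OA fluids). Among healthy fluids the highest PSMB5 to PSMB8 ratio was that of ORC_188, with the highest healthy fibroblast sum (123353). The highest PSMB6 to PSMB9 and PSMB7 to PSMB10 ratios were those of ORC_202, with the median fibroblast sum (7511). ORC_202 and ORC_188 had the lowest healthy sums of T cell markers (30646 and 31471) and cytotoxic markers (19981 and 24613). Within OA fluid the highest T cell (28222) and cytotoxic (19057) sums were those of OA_1038. That library also had the highest PSMB5 to PSMB8 and PSMB6 to PSMB9 ratios. Its monocyte and macrophage sum was the lowest of the OA fluids (30597, against 163591 to 228863 in the others). The part of cell makeup in the ratios was not tested.

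**Figure D4:**
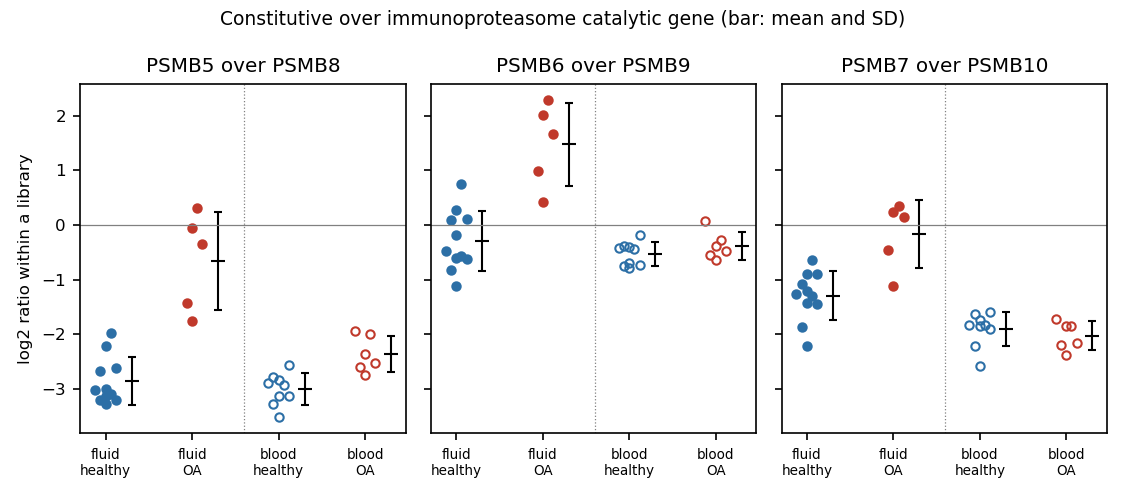
Log2 ratio of each constitutive catalytic gene to its immunoproteasome counterpart within a library, by tissue and group, with mean and SD; filled points are fluid (11 healthy, 5 OA), open points blood (9 healthy, 6 OA). In fluid the OA means lie 2.20, 1.76 and 1.13 above the healthy means; in blood the difference is 0.64 for PSMB5 over PSMB8 and 0.15 and -0.12 for the other pairs.

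In blood none of the 36 proteasome genes tested was called by limma in either direction. An unadjusted p below 0.05 was found for 11 of the 36, a share near that of all genes in blood (3273 of 13072). With edgeR 0 core and 0 regulatory genes were called, and with DESeq2 0 core genes and 1 regulatory gene, which was lower. The change was negative for 12 of 13 core genes, with a median of -0.23, and for 14 of 15 regulatory genes, with a median of -0.17, against 0.02 over all genes. PSMC4 and PSMC5, both ATPases of the base, were regulatory genes with every OA value below every healthy value, a separation found in 0.436% of all genes tested in blood. Of the core genes PSMB5 alone had a positive change.

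PSMC5 had normalised read counts of 2516 to 2994 in OA blood, with a median of 2952, and 3006 to 5822 in healthy blood, with a median of 3443. The highest OA and lowest healthy value lay next to each other, and the healthy horse ORC_197 stood far above the rest. The change was -0.34 (SE 0.12, limma adjusted p = 0.11), and it was called with a weight per library (-0.25, adjusted p = 0.047). PSMC4 had a mean of 2292 ± 49.8 (SD, n = 6) in OA and 2834 ± 578.9 (SD, n = 9) in healthy blood, a change of -0.28 (SE 0.11, adjusted p = 0.13). PSMC2 changed by -0.30 (adjusted p = 0.1), and the other ATPases by -0.27 to -0.14. None of these passed the limma test without such weights.

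The changes of the catalytic genes in blood were not called and were not tested against each other. PSMB5 had 1772 to 2446 in OA, with a median of 2042, and 1498 to 2737 in healthy blood, with a median of 1708. All OA values lay above the healthy median but within the healthy range, and the change was 0.17 (SE 0.13, limma adjusted p = 0.43). PSMB6 had 1702 to 2060, median 1891, in OA and 1602 to 3357, median 1986, in healthy blood (-0.19, adjusted p = 0.47). PSMB7 had 1846 to 2196, median 2057, in OA and 1832 to 4009, median 2542, in healthy blood (-0.32, adjusted p = 0.2).

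Among alpha ring genes the largest change in blood was that of PSMA4, with 1536 to 2067, median 1775, in OA and 1699 to 2996, median 1985, in healthy horses (-0.30, adjusted p = 0.15). PSMD4 of the base had 2209 to 2734, median 2564, against 2410 to 4527, median 2701 (-0.24, adjusted p = 0.23), and PSMD13 of the lid 2742 to 3295, median 2989, against 2803 to 4948, median 3390 (-0.23, adjusted p = 0.22). The groups overlapped in all 3, with healthy horses spread further upward. ORC_197 had the highest value of all blood libraries for 12 of 13 core genes and 11 of 15 regulatory genes, and ORC_209 the lowest healthy value for 11 of 13 core genes.

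The core chaperone PSMG3 had the largest negative change of the members in blood, with 584.8 to 1291, median 830.9, in OA and 832.7 to 1793, median 1311, in healthy horses. Of the OA horses 3 lay below every healthy one. The change was -0.54 (SE 0.18, limma adjusted p = 0.08), which was called with DESeq2 (adjusted p = 0.042) and without OA_1038 (-0.66, adjusted p = 0.03). With a weight per library it was called as well (-0.51, limma adjusted p = 0.03). Its partner PSMG4 changed by -0.39 (adjusted p = 0.16); the span of PSMG4 overlaps TUBB, which fell by 0.56 in blood (adjusted p = 0.028). The base chaperone PSMD5 had 739.4 to 963, median 812, against 822.7 to 1112, median 956.2 (-0.21, adjusted p = 0.17).

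PSME4 had the largest positive change of the members in blood, with 2775 to 4088, median 3489, in OA and 2228 to 3250, median 2894, in healthy horses. Of the OA horses 4 lay above every healthy one. The change was 0.30 (SE 0.11, limma adjusted p = 0.093), which was called with DESeq2 (adjusted p = 0.049) and without OA_4110 (0.37, adjusted p = 0.048). PSME3 (-0.15), PSMF1 (-0.11), PSMC3IP (-0.11) and PSME3IP1 (-0.17) were not called, and PSMA8 was at 5.11 in OA_2615 and at most 0.97 elsewhere.

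Levels of marker genes were also set beside the blood results. The summed level of 5 proliferation markers was 4100 to 7651 in OA and 7008 to 16991 in healthy blood, with 5 of 5 called lower, and that of 7 monocyte and macrophage markers 89114 to 241580 and 42632 to 117252, with 1 of 7 called higher. The sum of 2 neutrophil markers was 8129 to 33215 in OA and 2348 to 23541 in healthy blood, that of 4 B cell markers 7891 to 38874 and 17089 to 58843, and that of 5 plasma cell markers 11674 to 17506 and 12944 to 60361. Of these, 1 of 2 neutrophil markers was called higher, 2 of 5 plasma cell markers lower, and none of the 4 B cell markers (3 at an unadjusted p below 0.05). None of the 8 T cell markers was called (3 at an unadjusted p below 0.05), and none of the 6 cytotoxic and NK cell markers. OA libraries were also deeper, as given above. The part of these in the changes was not tested.

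The immunoproteasome genes were not called in blood either, at -0.47 for PSMB8 (limma adjusted p = 0.15), -0.34 for PSMB9 and -0.21 for PSMB10. The within-library ratio of PSMB5 to PSMB8 was higher in OA, at -2.74 to -1.93 against -3.52 to -2.55 in healthy blood, a difference of 0.64 (SE 0.17, two-sided exact permutation p = 0.000999, adjusted p = 0.00266), with groups that overlapped. The ratios of PSMB6 to PSMB9 (0.15, SE 0.13, exact permutation adjusted p = 0.341), PSMB7 to PSMB10 (-0.12, SE 0.15, exact permutation adjusted p = 0.466) and PSME3 to PSME1 (0.11, SE 0.13, exact permutation adjusted p = 0.466) did not pass. Whether a ratio changed more in fluid than in blood was not tested.

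The OA effect in fluid was set against that in blood in 1 fit over the 12733 genes tested in both tissues. Of these, 1315 (10.3%) were called with a higher effect in fluid and 1519 with a lower one. Of the core genes 7 of 13 were called, and all 7 were higher in fluid. In the alpha ring they were PSMA2 (0.76, limma adjusted p = 0.028), PSMA3 (0.90, SE 0.24, adjusted p = 0.0097), PSMA4 (0.78, adjusted p = 0.012) and PSMA7 (0.77, adjusted p = 0.038). In the beta ring they were PSMB2 (0.77, adjusted p = 0.043), PSMB5 (1.04, SE 0.27, adjusted p = 0.0071) and PSMB6 (0.80, adjusted p = 0.043). Of the regulatory genes 4 of 15 were called higher in fluid. They were PSMC4 (0.64, adjusted p = 0.015), PSMC5 (0.66, adjusted p = 0.018), PSMC6 (0.56, adjusted p = 0.040) and PSMD1 (0.56, adjusted p = 0.015). The calls of PSMB2 and PSMB6 were lost in 12 of 23 alternatives each, and that of PSMC6 in 11. The chaperones PSMD5 (0.72, adjusted p = 0.0079) and PSMG3 (0.99, adjusted p = 0.033) were also called. No member was called lower. PSMB5 had the largest difference and PSME4 the smallest, -0.30 (SE 0.19, adjusted p = 0.26).

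The samples of a horse can be paired, so the same difference was also taken within the 13 horses that gave both tissues. With this replicate block 8 core genes were called, which included the 7 above and PSMB7 (0.71, SE 0.16, limma adjusted p = 0.01). Of the regulatory genes 6 were called, 3 of them shared: PSMC2 (adjusted p = 0.029), PSMC3 (adjusted p = 0.039) and PSMD13 (adjusted p = 0.04) came in, and PSMC6 (adjusted p = 0.055) went out. Leaving out 1 horse was run only for the first fit, over all horses, and not for the replicate block. Core calls then numbered 3 to 8, with 3 without OA_1038, OA_3850 or OA_9350 and 4 without ORC_196, ORC_197 or ORC_200. Regulatory calls numbered 2 to 7 (2 without OA_1038 or OA_2615, 7 without ORC_202).

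Genes that work with the proteasome were read from lists of its partners. Of 9 tested parts and partners, SEM1 and POMP, or 2, were called higher in OA fluid, against 14.4% of all genes tested. SEM1, a small lid subunit, changed by 0.80 (limma adjusted p = 0.015). POMP, the maturation factor that the new core particle consumes, changed by 0.82 (adjusted p = 0.026). TXNL1, a thioredoxin that binds the regulatory particle, changed by 0.50 (adjusted p = 0.052). In the difference between tissues 3 of the 9 were called higher in fluid and 1 lower, against 1315 and 1519 of 12733 genes. Higher were SEM1 (1.01, adjusted p = 0.028), POMP (0.99, adjusted p = 0.017) and the deubiquitinase UCHL5 (0.70, adjusted p = 0.0067). AKIRIN2, which helps import proteasomes into the nucleus, was lower (-0.63, adjusted p = 0.046). None of the 9 was called in blood, 3 having an unadjusted p below 0.05, against 3273 of all 13072 genes.

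Of 6 regulators of proteasome genes, 1 was called lower in fluid, a share near the 13.6% of all genes. It was DDI2, the protease that activates the transcription factor NFE2L1, at -0.76 (limma adjusted p = 0.021), while NFE2L1 itself changed by 0.57 (adjusted p = 0.069) and NFE2L2, the factor of the oxidative stress response, by 0.62 (adjusted p = 0.1). In blood 1 of the 6 was called higher, against 3.2% of all genes. It was NFE2L2, at 0.70 (adjusted p = 0.042), while DDI2 changed by 0.81 (adjusted p = 0.068). The effect on DDI2 was lower in fluid than in blood by 1.57 on the log2 scale (adjusted p = 0.0074).

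Of 5 tested ubiquitin genes and activating enzymes, 2 were called higher in fluid, against 14.4% of all genes tested. RPS27A, which encodes ubiquitin fused to a ribosomal protein, changed by 0.87 (limma adjusted p = 0.015). UBA1, the main activating enzyme, changed by 0.55 (adjusted p = 0.048). Of 8 tested shuttle receptors and VCP partners, 1 was called higher and 1 lower in fluid, and 6 changes were positive. The gene called lower was FAF2, which works with VCP at the endoplasmic reticulum (-0.53, adjusted p = 0.046). VCP, an unfoldase, changed by 0.36 (adjusted p = 0.065). None of either list was called in blood, where 1 and 0 of them had an unadjusted p below 0.05.

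Heat shock and ribosomal protein genes moved in the same direction as the core genes in fluid. Of 6 heat shock genes 4 rose, with summed levels of 27070 to 37984 in OA and 15064 to 23539 in healthy fluid. Of 6 ribosomal protein genes 5 rose, with summed levels of 274067 to 974997 and 175660 to 380724. Over all genes tested in fluid 14.4% were called higher. None of either list was called in blood, 3 of each having an unadjusted p below 0.05, against 3273 of all 13072 genes. Their relation to the proteasome genes was not tested.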

How the data were processed

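RNA was sequenced by the authors from fluid cell pellets, obtained after hyaluronidase treatment, and from PBMC, per the labels' protocols. Each tissue has its own table, in which the authors deposited 1 signal per gene and library: the read count over a size factor of the median-ratio kind. Per the submitters' processing notes, the build was EquCab3.0 and the tools were Partek, cutadapt, STAR 2.7.3, HTSeq and DESeq. Their settings, the use of strand and the annotation release are not given in the sources used for this report. Coordinates are those of the blood table.

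Low values are whole multiples of what 1 read is worth, which gave back the reads: 99.87% to 99.98% of a library's values came out whole within 0.1 read. These reads gave the depth and the edgeR 4.0.16 and DESeq2 1.42.0 alternatives. Over all genes, edgeR called 1964 higher and 2043 lower in fluid and 504 and 301 in blood, and DESeq2 2509 and 2163 in fluid and 935 and 750 in blood. No 2 libraries of a tissue were near copies (smallest chi-square per gene 108 in fluid and 37.0 in blood).

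For genes whose mean reached at least 10, log2(value + 1) was modelled in limma 3.58.1 (R 4.3.3, trend and robust variance), two-sided, on the libraries of a tissue; 38 of the 39 members passed this minimum in either tissue. The log2 scale understates changes of low genes. The difference between tissues used 4 group means with weights per tissue. Fluid and blood of the same horse were paired by the number in their titles; after taking out group means, the correlation between a horse's libraries was above 0.1 for 13 of 13 horses (0.12 to 0.39). Ratios were tested by exact permutation of the group labels, two-sided. The steps were tested on simulated data. Replicates are separate horses, and precision is set mainly by their number.

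Members, lists and tests were chosen with earlier results of these data known, and no list was tested as a set. Given with every library's value (range and median for larger groups) are, in each class, the 2 called genes of smallest adjusted p or else the gene of largest change, the 3 catalytic genes, and the members of largest and smallest difference between tissues. Of each partner list the 3 genes of smallest p are given where any was called, except for some genes of these lists that are not reported here. PSMC2, PSMC4, PSMG4 and genes given without library values were named to account for their class. UBQLN2 and ADRM1 were not analysed here.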

Additional observations from a re-analysis of the deposited data

Results flagged for a closer look

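Among the members given with library values, 32 groups of 4 to 10 samples were examined for a single value far from the rest, and chance alone flags about 1 in 20 such groups. Flagged were OA_1038 for PSMB5 in OA fluid, at 7621 normalised reads, OA_9350 for PSMC5 in OA blood, the lowest at 2516, and ORC_197 for PSMC5 in healthy blood, the highest at 5822. PSMB5 without OA_1038 is given in the report.

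The OA effect differed between fluid and blood, by the fit of the difference (limma, adjusted p below 0.05), for 13 members, all of them higher in fluid. On the log2 scale the differences were 0.76 for PSMA2, 0.90 for PSMA3, 0.78 for PSMA4, 0.77 for PSMA7, 0.77 for PSMB2, 1.04 for PSMB5, 0.80 for PSMB6, 0.64 for PSMC4, 0.66 for PSMC5, 0.56 for PSMC6, 0.56 for PSMD1, 0.72 for PSMD5 and 0.99 for PSMG3.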

How the results depend on the processing

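The 6 core calls in fluid became 2 with equal library totals, 3 with TMM factors and 3 with edgeR, and 2 to 7 when 1 library was left out. The 1 regulatory call became 0 with equal totals, TMM factors, edgeR or only the horses that gave both samples, 5 with weights per library, 4 with DESeq2, 2 without OA_9570 and ORC_202 together, and 0 to 2 when 1 library was left out. In blood the 0 regulatory genes called lower became 2 with weights per library and 1 with DESeq2, and stayed at 0 to 0 when 1 library was left out. In the difference the 7 core and 4 regulatory calls became 3 and 1 with equal totals, and 3 to 8 and 2 to 7 when 1 horse was left out. The replicate block gave 8 and 6, with the genes named in the report.

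PSMA3 and PSMB5 kept their call in fluid in 26 of 26 alternatives. The call was lost in 14 for PSMA2, 12 for PSMA4, 4 for PSMA7, 15 for PSMB6, 8 for PSMD1 and 17 for PSMD5. In the difference between tissues PSMA3, PSMA4 and PSMB5 kept their call in 23 of 23 alternatives. There the call was lost in 12 for PSMB2, 12 for PSMB6, 11 for PSMC6, 7 for PSMA7, 6 for PSMG3 and 4 for PSMA2. It was lost in 2 for PSMD1 and in 1 each for PSMC4, PSMC5 and PSMD5. PSME4 in fluid, at 0.00, turned to -0.20 with equal totals, -0.060 with TMM factors, -0.11 with only the horses that gave both samples and -0.042 with edgeR, and ranged from -0.071 to 0.12 when 1 library was left out. All 8 ratios kept their side of the threshold under each alternative run. Equal totals moved the share of calls that were higher from 51.4% (2006 of 3899) to 32.0% (1302 of 4069) in fluid and from 46.4% to 26.1% in the difference. Weights per library raised the calls over all genes to 6635 in fluid and 2312 in blood. Leaving out 1 library gave 2506 to 4651 calls over all genes in fluid and 31 (without OA_9570) to 1209 (without ORC_202) in blood, against 706 in the full set. The cause of these shifts was not tested.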
